A study of Canis lupus familiaris with 18 samples.

Results

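Antioxidant and redox genes were followed in dog heart as heart failure (HF) advanced. A list of 42 genes was used, and each gene was read through 1 probe set, the one with the highest mean signal over all arrays among those annotated to that gene symbol alone. Of the 42, 39 had such a probe set, out of 15115 genes on the array with a symbol of their own. GPX4 and SRXN1 had no probe set under their own symbol, and GSTP1 had only probe sets that carry several symbols. Of the 39, 36 passed the filter on signal, set at 5.31 on the log2 scale. The other 3, GCLC, HMOX1 and MAOA, averaged 4.87, 5.21 and 5.30, just under it. The passing members of lowest mean were NCF1 (5.44) and GSR (5.72). No probe set's signal is compared with another's below, because probe sets differ in how well they bind.

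The study put total RNA from small frozen pieces of right atrium (RA) and right ventricle (RV) on 18 Affymetrix Canine_2 arrays. There were 6 groups of 3 arrays: RA of early HF, late HF and control dogs, and RV of early HF, late HF and control dogs. Rapid ventricular pacing lasted 2 weeks in early HF (2 to 3 in the treatment protocol) and 5 weeks in late HF (5 to 6 in the treatment protocol). All were adult mongrels or beagles, and neither the breed of each animal nor the treatment of the controls beyond the word control is given. The replicates are called biological, but no animal is identified, so a p-value here reflects only the scatter among these arrays, which may be technical.

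Cells make superoxide and hydrogen peroxide in mitochondria and through enzymes such as the NADPH oxidases and monoamine oxidases. Superoxide dismutases turn superoxide into peroxide, and catalase, the glutathione peroxidases and the peroxiredoxins remove the peroxide, drawing reducing power from glutathione and thioredoxin. The transcription factor NRF2 (NFE2L2), held back by KEAP1, switches on many of these defences, and oxidant stress in paced and failing myocardium has been studied as a source of contractile and electrical change.

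The library labelled RA late 3 carried ventricular markers: the ventricular light chain MYL2 had 14.17 there, against 10.99 and 10.59 in RA late 1 and 2, and the atrial light chain MYL7 had 11.65, against 13.72 and 13.99. MYL2 was also high in RA early HF, at 9.73, 12.06 and 10.53, against 6.51, 6.04 and 9.38 in RA controls. RV late 1 was low in MYL2, at 12.76, against 14.13 to 14.17 in RV controls. Results that include RA late HF are therefore mostly given with and without that library. Since all groups share 1 estimate of the spread, leaving out RA late 3 also alters the p of other comparisons. The cardiomyocyte list (12 of 15 markers measured) averaged between 12.5 and 13.2 on every array. It averaged 12.64 to 12.93 in RA early HF, below the RA controls at 13.02 to 13.12. RA late 1, 2 and 3 averaged 12.50, 12.95 and 13.21. In RV the list averaged 13.15 to 13.18 in early HF and 13.03 to 13.18 in late HF, against 13.15 to 13.21 in controls. The part of this list in the redox differences was not tested. The 3′ minus 5′ signal of EF1A, a sign of RNA quality or of probe design, was 9.45 to 9.64 in RA early HF and 8.36 to 9.54 in RA late HF, against 9.28 to 9.58 in RA controls. In RV it was 8.19 to 8.76 in early HF and 8.51 to 8.86 in late HF, against 8.01 to 8.28 in RV controls, so the late RV arrays did not overlap their controls. Its part in the differences given for RV late HF was not tested. These arrays are of whole tissue, so fewer cells of a type and less RNA per cell cannot be told apart.

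No redox gene passed the test for a change with HF when all arrays were used. Of 36 genes tested, 0 rose and 0 fell in any of the 4 comparisons of HF with control at an adjusted p of 0.05 (limma, Benjamini-Hochberg over 25752 probe sets). The largest shift belonged to CYBB, the catalytic subunit of the phagocyte NADPH oxidase, at 1.60 in RA early HF and 1.19 in RA late HF on the log2 scale. Without the library labelled RA late 3, CYBB passed in both. The share of all 10988 genes that passed was small too: 0.746% in RA early HF, 0.0364% in RA late HF, 0.1% in RV early HF and 0% in RV late HF. Without RA late 3, it was 3% in RA early HF, 1.26% in RA late HF, 0.528% in RV early HF and 0.155% in RV late HF, and of the 36 members 1, 1, 0 and 0 passed. Comparisons within a chamber share their 3 control arrays.

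The members' shifts were small. Their median log2 fold change was 0.03 in RA early HF, 0.11 in RA late HF, 0.01 in RV early HF and 0.16 in RV late HF, where the medians of all genes were -0.017, -0.0033, -0.01 and -0.013. Positive values were seen for 18, 25, 20 and 26 of the 36 members, and for 45.2%, 48.5%, 46.6% and 46.2% of all genes. An unadjusted p under 0.05 was found for 4 members in RA early HF, 6 in RA late HF, 3 in RV early HF and 5 in RV late HF. These are 11.1%, 16.7%, 8.33% and 13.9% of the members, and over all genes the shares were 13.0%, 9.97%, 8.34% and 9.10%. Without RA late 3 the counts were 5, 11, 4 and 8 members, or 13.9%, 30.6%, 11.1% and 22.2%, against 15.1%, 17.8%, 10.3% and 11.8% of all genes. In that fit the members' median in RA late HF was 0.16, and 27 of the 36 were positive. RA late HF then rested on RA late 1 and 2. RA late 1 held the highest signal of all 18 arrays for 14 of the 36 members, or 38.9%, against 16.1% of all genes. The members were listed with earlier results known, so these shares are a description. Where groups are said below not to overlap in a HF comparison, this too only describes the arrays. The share of all genes without overlap was counted only between control chambers, where it was 27.3%.

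The intervals say how large a change these arrays could have missed. The 95% interval of the change lay within 2-fold in either direction for 34 of 36 members in RA early HF, 34 in RA late HF, 34 in RV early HF and 33 in RV late HF. It lay within 1.5-fold for 25, 23, 27 and 23. Without RA late 3 the counts, in the same order, were 34, 34, 35 and 33 within 2-fold. They were 27, 21, 28 and 23 within 1.5-fold. With all arrays, the members whose interval reached past 2-fold were CYBB in every comparison and TXNIP in both early HF groups. GLRX in both late HF groups and MAOB in RV late HF were the others. All genes together had 94.8%, 96.3%, 96.0% and 96.3% of their intervals within 2-fold.

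**Figure D1:**
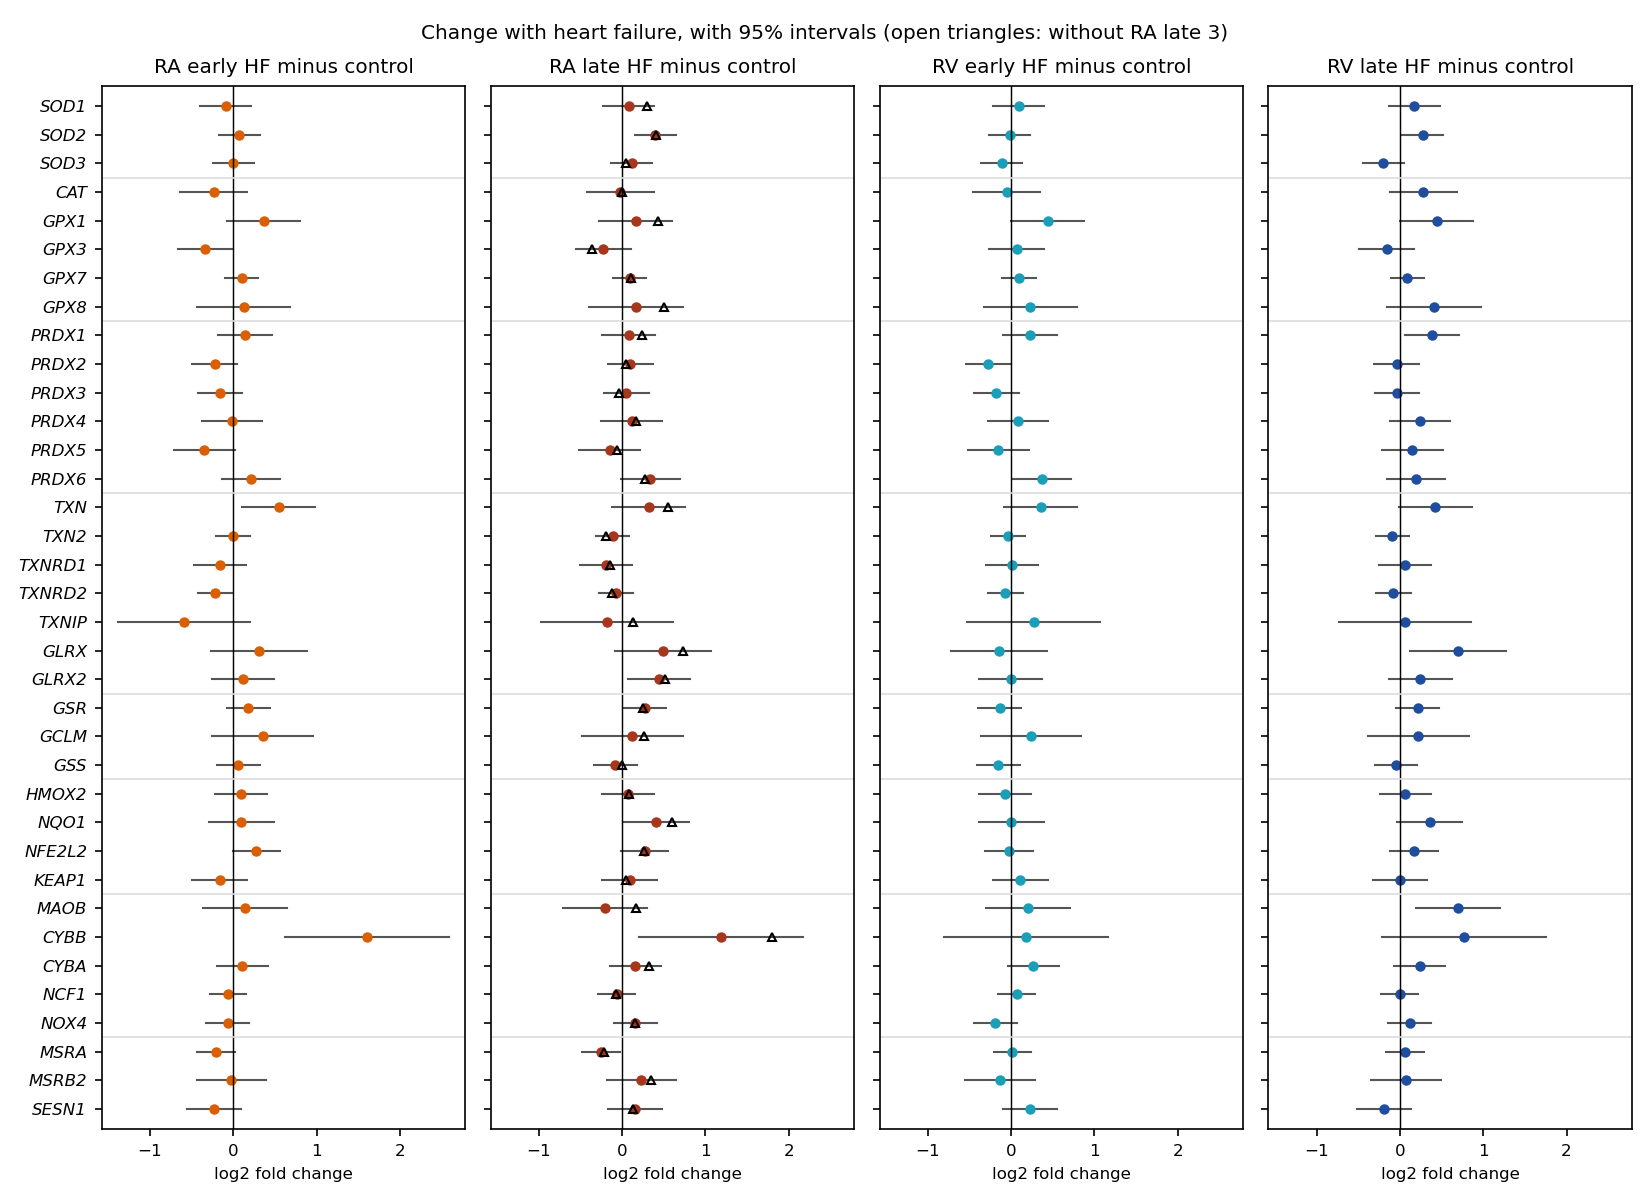
Log2 fold change of the 36 tested redox genes (rows, grouped by role) in RA early HF, RA late HF, RV early HF and RV late HF against the controls of the same chamber. Points are the estimates from 3 arrays per group, lines their 95% intervals, and open triangles the RA late HF estimates without the library labelled RA late 3. Most points lie within 0.5 of 0, and CYBB stands furthest to the right in RA, at 1.60 and 1.19.

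Among the sources of oxidants, CYBB had the largest differences from control in RA. Its signals were 8.93, 7.78 and 7.73 in RA early HF and 9.05, 7.64 and 6.51 in RA late HF, against 6.13, 6.84 and 6.66 in RA controls. All 3 early arrays and the first 2 late arrays lay above every RA control, and the low late value was the library labelled RA late 3. The RA means were 8.15 ± 0.68 in early HF, 7.73 ± 1.27 in late HF and 6.54 ± 0.37 in controls (SD, n = 3 each). The difference in early HF was 1.60 (SE 0.465), a 3.04-fold difference, with an adjusted p of 0.112 in limma over all arrays and 0.0229 without RA late 3. In late HF it was 1.19 (SE 0.465, adjusted p = 0.349 in limma), and without RA late 3 it was 1.80 (SE 0.400, adjusted p = 0.0355). That second call rests on 2 late arrays.

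In the ventricle CYBB had 6.89, 6.66 and 6.09 in early HF and 6.75, 7.57 and 7.10 in late HF, against 6.24, 6.65 and 6.21 in RV controls. The late arrays lay just above the controls without overlap, and the early arrays overlapped them. The late difference was 0.77 (SE 0.465, adjusted p = 0.619 in limma). The early HF effect was larger in RA than in RV by 1.42 (SE 0.658), which did not pass (adjusted p = 0.902 in limma, 0.488 without RA late 3). Other CYBB probe sets gave 0.78 and 1.10 in RA early HF and 0.63 and 0.95 in RA late HF.

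CYBB is made by macrophages and other phagocytes, and the list of 20 macrophage and myeloid markers was higher on the same arrays. The mean over the list was 6.97 to 7.52 in RA early HF and 6.54 to 7.41 in RA late HF, against 6.50 to 6.61 in RA controls, and the low late value was again RA late 3. In RV it was 6.44 to 6.82 in early HF and 6.77 to 6.92 in late HF, against 6.48 to 6.59 in controls. With all arrays 0 of the 15 markers tested passed. Without RA late 3, 7 of the 15 rose in RA early HF, among them the complement gene C1QC and the cysteine protease CTSS, 5 rose in RA late HF, and 1, CTSS, in RV late HF. The markers PTPRC, ITGAM, FCER1G, MSR1 and SPI1 were below the signal filter. The part of the macrophage signal in the CYBB result was not tested.

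**Figure D2:**
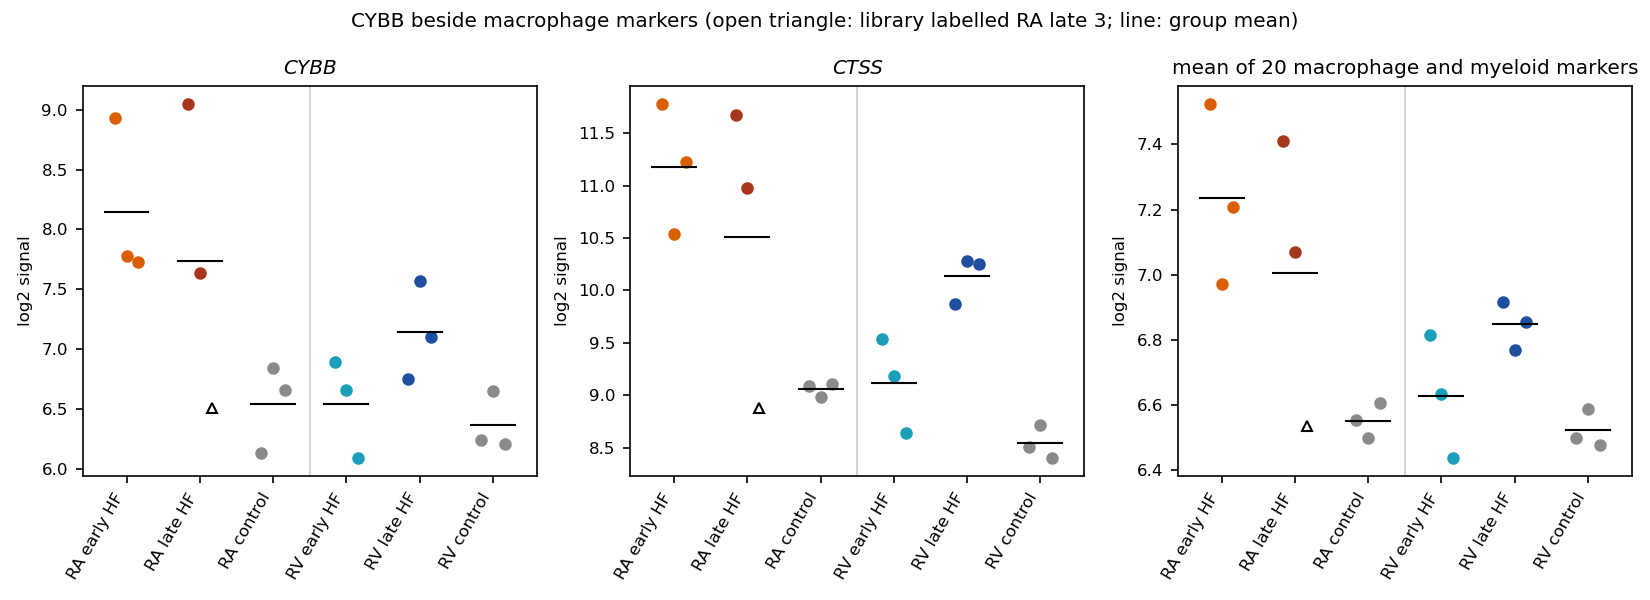
Log2 signal of CYBB, of the macrophage protease CTSS and of the mean of 20 macrophage and myeloid markers on each of the 18 arrays, by group, with lines at group means and an open triangle for the library labelled RA late 3. In all 3 panels the RA early HF arrays and the first 2 RA late HF arrays lie above every RA control, and RA late 3 lies close to the controls or below them.

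CTSS, the marker plotted beside CYBB, spanned a wider range. It had 11.78, 10.54 and 11.22 in RA early HF and 11.67, 10.98 and 8.88 in RA late HF, against 9.09, 8.98 and 9.11 in RA controls. In RV it had 9.54, 9.18 and 8.64 in early HF and 9.87, 10.28 and 10.25 in late HF, against 8.51, 8.72 and 8.40 in controls. The late RV arrays stood clear of their controls for CTSS and, by less, for CYBB. Fibroblast markers stood apart as well, with a list mean of 9.37 to 10.3 in RA early HF and 8.10 to 10.1 in RA late HF, against 8.51 to 8.65 in RA controls. In RV the fibroblast list averaged 8.13 to 8.45 in early HF and 8.44 to 8.81 in late HF, against 7.74 to 7.95 in controls, so all 6 HF arrays lay above the controls.

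The partners of CYBB in the oxidase had smaller differences in RA. CYBA, the membrane subunit that CYBB binds, had 9.28, 9.05 and 9.47 in RA early HF and 9.61, 9.36 and 8.98 in RA late HF, against 9.10, 9.28 and 9.09 in RA controls, so the groups overlapped. Its differences were 0.11 (SE 0.145) and 0.16 (SE 0.145), and neither passed. The late difference without RA late 3 was 0.33 (SE 0.134, adjusted p = 0.198 in limma). In RV, CYBA had 8.82, 9.05 and 8.95 in early HF and 9.02, 8.91 and 8.80 in late HF. All of these arrays lay above the RV controls, at 8.70, 8.64 and 8.68, as they did for the fibroblast list, whose part was not tested. The early RV difference was 0.27 (SE 0.145, adjusted p = 0.675 in limma), against 0.18 for CYBB. NCF1, a cytosolic organizer of the oxidase, stayed between 5.19 and 5.61 on all arrays, close to the signal filter. NOX4, an oxidase of cardiomyocytes and fibroblasts that makes peroxide, lay between 5.70 and 6.28. In RV early HF, NOX4 had 6.11, 5.70 and 5.91, against 6.20, 5.83 and 6.25 in RV controls, which overlap (-0.19, SE 0.122, adjusted p = 0.772 in limma).

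MAOB, a mitochondrial monoamine oxidase that releases peroxide as it breaks down amines, stood clear of its controls in the late ventricle. It had 7.43, 6.85 and 7.47 in RV late HF, against 6.64, 6.38 and 6.64 in RV controls, with no overlap. The difference was 0.70 (SE 0.239, adjusted p = 0.433 in limma), and without RA late 3 the same difference had an SE of 0.158 and an adjusted p of 0.0823. Atrial myocyte markers were also higher on these arrays: the list of 5 averaged 9.55, 10.21 and 10.06 in RV late HF, against 8.62 to 9.53 in RV controls. Without RA late 3 the list's MYL7 rose. The list of 3 ventricular markers averaged 10.66 on RV late 1 and 12.15 to 12.18 on the other late arrays, against 11.92 to 12.15 in RV controls. The adipocyte list averaged 8.20, 7.36 and 7.81 in RV late HF, against 7.01 to 7.42 in RV controls. The part of these lists in the MAOB difference was not tested. In RV early HF MAOB had 6.80, 7.0 and 6.48, which overlapped both the late and the control arrays. In RA it had 7.66, 7.46 and 7.40 in early HF and 7.59, 7.47 and 6.42 in late HF, against 7.43, 7.39 and 7.27 in controls. The late HF effect was lower in RA than in RV by 0.90 on the log2 scale (-0.90, SE 0.338, adjusted p = 0.604 in limma), and -0.53 (adjusted p = 0.629) without RA late 3. MAOA, its companion enzyme, lay between 5.05 and 5.60 and was not tested.

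**Figure D3:**
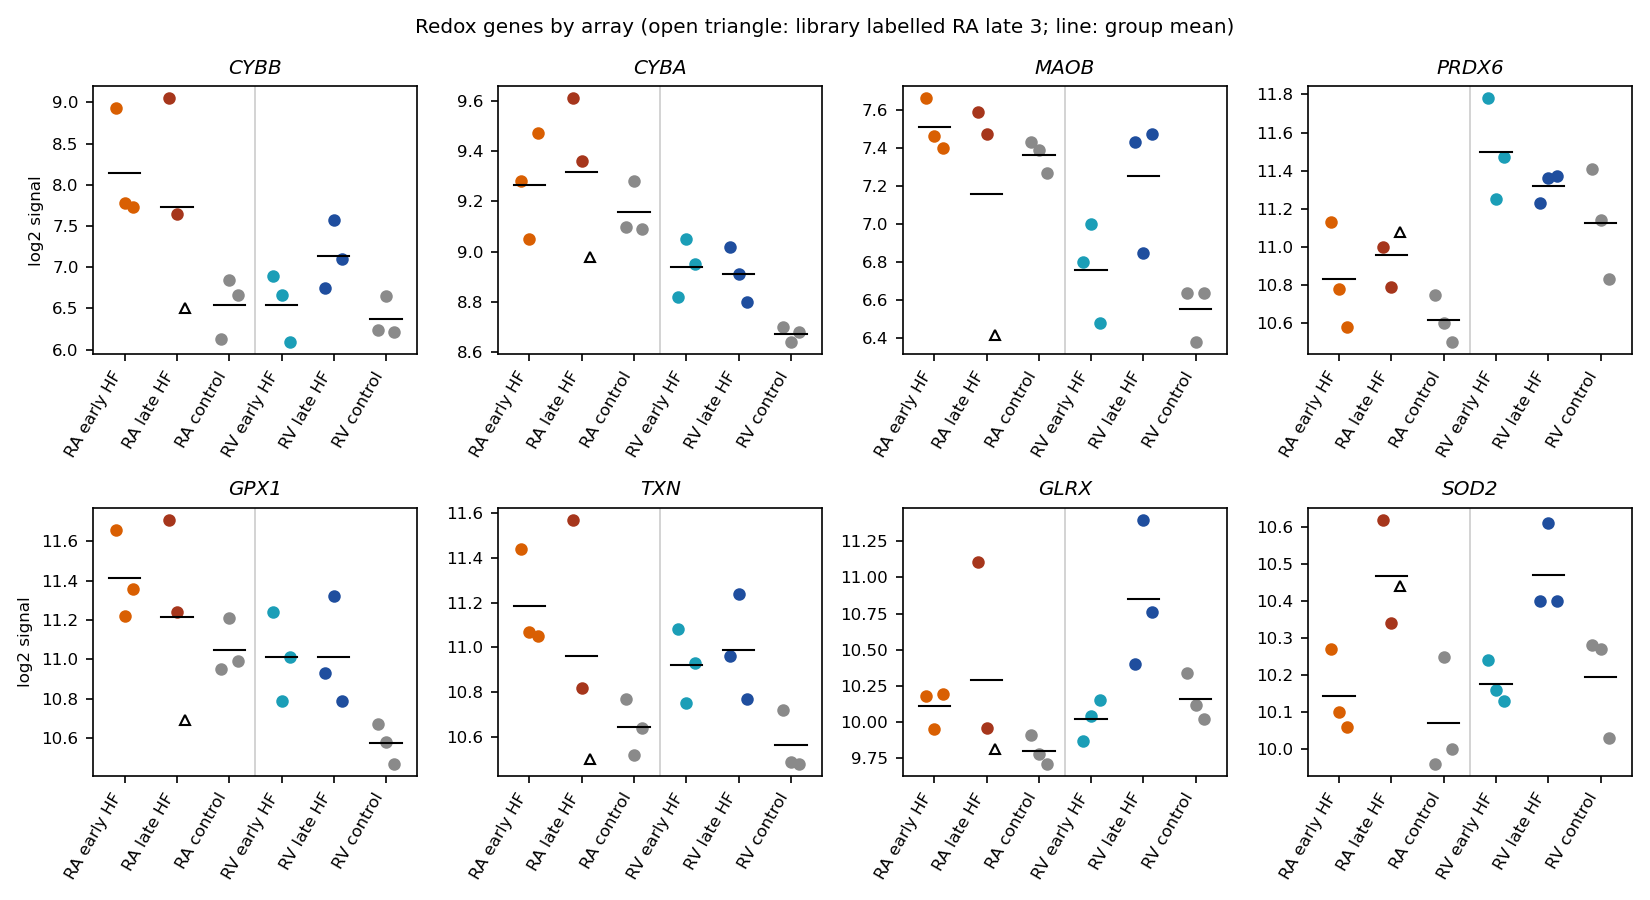
Log2 signal of 8 redox genes on each of the 18 arrays, by chamber and stage, with a line at each group mean and an open triangle for the library labelled RA late 3. CYBB is high in RA early HF and on 2 RA late HF arrays, and MAOB and CYBA are higher in RA than RV controls. PRDX6 is lower in RA than RV at each stage, and the means of GLRX and SOD2 are highest in late HF. For GLRX in RA, only RA late 1 (11.11) lies above the early arrays, at 9.95 to 10.19.

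The superoxide dismutases showed no change past the threshold. SOD2, the mitochondrial enzyme, had 10.62, 10.34 and 10.44 in RA late HF, against 9.96, 10.25 and 10 in RA controls. Every late array lay above every control, RA late 3 included. The difference was 0.40 (SE 0.117, adjusted p = 0.229 in limma), and 0.41 (adjusted p = 0.107) without RA late 3. SOD2 also had 10.40, 10.61 and 10.40 in RV late HF, against 10.28, 10.27 and 10.03 in RV controls, a difference of 0.28 (SE 0.117, adjusted p = 0.508 in limma). In early HF it lay among the controls, at 10.06 to 10.27 in RA and 10.13 to 10.24 in RV. A second SOD2 probe set gave smaller differences, 0.20 in RA late HF and 0.12 in RV late HF.

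SOD1, the cytosolic enzyme, lay between 11.07 and 11.80 over all arrays. Its lowest array was RA late 3 and its highest RA late 1, so its late RA difference was 0.08 with all arrays and 0.30 without RA late 3, and neither passed. SOD3, the extracellular enzyme, had 7.16, 6.99 and 7.16 in RV late HF, against 7.32, 7.25 and 7.33 in RV controls. The groups did not overlap, and the difference was -0.20 (SE 0.116, adjusted p = 0.614 in limma).

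Among the enzymes that remove peroxide, GPX1, the common cytosolic and mitochondrial glutathione peroxidase, was set above control in the ventricle at both stages. It had 11.24, 10.79 and 11.01 in RV early HF and 10.93, 11.32 and 10.79 in RV late HF, against 10.67, 10.58 and 10.47 in RV controls. All 6 HF arrays lay above all 3 controls, as they did for the fibroblast list, whose part was not tested. Both differences were 0.44 (SE 0.208), with an adjusted p of 0.589 and 0.541 in limma. In RA early HF it had 11.66, 11.22 and 11.36, against 10.95, 11.21 and 10.99 in RA controls, a difference of 0.36 (SE 0.208, adjusted p = 0.478 in limma). RA late HF spread widest, with 11.71, 11.24 and 10.69, the last being RA late 3 and the others above every RA control. The late RA difference was 0.16 (SE 0.208, adjusted p = 0.798 in limma) with all arrays. It was 0.425 (SE 0.182, adjusted p = 0.221 in limma) without RA late 3.

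GPX3, the secreted plasma peroxidase, had negative differences in the atrium. It had 7.51, 7.61 and 7.52 in RA early HF, against 7.69, 7.95 and 8.0 in RA controls, with no overlap (-0.33, SE 0.157, adjusted p = 0.356 in limma). RA late HF had 7.17, 7.86 and 7.93, and the late difference of -0.23 (SE 0.157, adjusted p = 0.600) rested on the first array, since it was 0.015 without that array. It was -0.365 (adjusted p = 0.230) without RA late 3. Catalase (CAT) lay between 10.08 and 11.20, GPX7 between 5.91 and 6.27 and GPX8 between 9.04 and 10.36. The last 2, peroxidases of the endoplasmic reticulum, differed from control by 0.09 to 0.41 in the 4 comparisons, and none passed. In RA late HF, GPX8 differed by 0.50 without RA late 3 (SE 0.232, adjusted p = 0.251 in limma) and by 0.17 with it.

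Of the 6 peroxiredoxins, none passed in any HF comparison. PRDX6, the 1-cysteine peroxiredoxin that also acts on phospholipids, had 11.78, 11.25 and 11.47 in RV early HF, against 11.41, 11.14 and 10.83 in RV controls. The groups overlapped, and the difference was 0.37 (SE 0.166, adjusted p = 0.554 in limma). Under other processing settings the difference ran from 0.20 to 0.37 (adjusted p = 0.417 to 0.914 in limma). PRDX2, a cytosolic member abundant in red cells, had 10.25, 10.51 and 10.25 in RV early HF, against 10.75, 10.57 and 10.51 in RV controls. The highest early array equalled the lowest control, and the difference was -0.27 (SE 0.127, adjusted p = 0.577 in limma). PRDX1, another cytosolic member, had 11.40, 11.74 and 11.35 in RV late HF, against 11.02, 11.12 and 11.19 in RV controls, with no overlap (0.39, SE 0.153, adjusted p = 0.484 in limma).

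PRDX3, the mitochondrial one, lay between 11.05 and 11.81, PRDX4, of the endoplasmic reticulum, between 8.63 and 9.52, and PRDX5, found in several compartments, between 10.79 and 11.71. Their differences from control ran from -0.35 (PRDX5, RA early HF) to 0.24 (PRDX4, RV late HF).

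Thioredoxin (TXN), the cytosolic electron donor of the peroxiredoxins, stood above control in both early groups and in the late ventricle, without passing. It had 11.44, 11.07 and 11.05 in RA early HF, against 10.77, 10.52 and 10.64 in RA controls, with no overlap. The difference was 0.54 (SE 0.208), with an adjusted p of 0.235 in limma and 0.106 without RA late 3. A second TXN probe set gave 0.55. RA late HF had 11.57, 10.82 and 10.50, with RA late 3 lowest and the other late arrays above every RA control. The late RA difference was 0.32 (SE 0.208, adjusted p = 0.574 in limma) with all arrays. It was 0.55 (SE 0.195, adjusted p = 0.144 in limma) without RA late 3. In RV the 3 early arrays, 11.08, 10.75 and 10.93, and the 3 late arrays, 10.96, 11.24 and 10.77, all lay above the controls at 10.72, 10.49 and 10.48. The fibroblast list had the same order in RV.

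The mitochondrial thioredoxin genes spanned less. TXN2 varied least of all members, between 9.15 and 9.48, with a spread within groups of 0.08 (pooled SD). TXNRD2, the mitochondrial thioredoxin reductase, had 6.71, 6.96 and 6.93 in RA early HF, against 7.20, 7.06 and 7.01 in RA controls, with no overlap (-0.22, SE 0.0968, adjusted p = 0.307 in limma). Its other probe set above the signal filter gave -0.06. TXNRD1, its cytosolic counterpart, lay between 7.79 and 8.71. TXNIP, which binds and inhibits thioredoxin, ranged from 10.11 to 12.05, and its spread within groups of 0.53 left every HF interval wide.

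Glutaredoxin (GLRX), which removes glutathione from protein thiols, separated the late ventricle from the other RV arrays. It had 10.40, 11.40 and 10.76 in RV late HF, against 10.34, 10.12 and 10.02 in RV controls, while RV early HF had 9.87, 10.04 and 10.15. No late array overlapped either group, although the lowest late array lay close to the highest control. Against control the late difference was 0.69 (SE 0.272, adjusted p = 0.478 in limma), and against early HF it was 0.83 (SE 0.272, adjusted p = 0.717). Other GLRX probe sets gave 0.69 and 0.35 for late HF against control. In RA late HF, GLRX had 11.11, 9.96 and 9.81, against 9.91, 9.78 and 9.71 in RA controls. The difference, which 1 array carried, was 0.49 (SE 0.272, adjusted p = 0.497 in limma). It was 0.735 (SE 0.275, adjusted p = 0.164 in limma) without RA late 3.

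GLRX2, the mitochondrial glutaredoxin, had 9.21, 8.67 and 8.73 in RA late HF, against 8.43, 8.41 and 8.44 in RA controls. The late arrays lay above the controls without overlap, RA late 3 included. The difference was 0.44 (SE 0.178, adjusted p = 0.356 in limma), and 0.51 (adjusted p = 0.175) without RA late 3.

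The glutathione genes gave no call. GSR, which regenerates reduced glutathione, had 5.94, 5.95 and 5.85 in RV late HF, against 5.54, 5.56 and 5.59 in RV early HF and 5.83, 5.84 and 5.43 in RV controls. Late exceeded early without overlap by 0.35 (SE 0.121, adjusted p = 0.775 in limma), but 2 controls were near the late level. GCLM, the modifier subunit of the enzyme that limits glutathione synthesis, ranged from 5.84 to 7.30. GSS, which completes that synthesis, lay between 6.44 and 7.11. GCLC, the catalytic subunit, stayed below 5.40 on every array but RA late 1, which had 5.40.

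The NRF2 axis likewise gave no call at any stage. NFE2L2 had 9.22, 9.18 and 9.09 in RA early HF and 9.24, 9.06 and 9.17 in RA late HF, against 8.53, 9.14 and 8.99 in RA controls, where the first control was low. KEAP1, its inhibitor, lay between 6.63 and 7.26. NQO1, a quinone reductase that NRF2 drives, had 7.01, 7.08 and 6.47 in RA late HF, against 6.31, 6.49 and 6.54 in RA controls. The overlap came from RA late 3, and the difference was 0.41 (adjusted p = 0.409 in limma) with it and 0.60 (adjusted p = 0.0922) without it. In RV late HF, NQO1 had 6.89, 7.11 and 6.82, against 6.48, 6.73 and 6.54 in RV controls, with no overlap (0.36, SE 0.185, adjusted p = 0.576 in limma). The other NQO1 probe set above the signal filter had the opposite sign, -0.10 in RA late HF and -0.08 in RV late HF. HMOX1, the inducible heme oxygenase and a classic NRF2 target, stayed between 5.02 and 5.39, and HMOX2, the constitutive form, between 7.09 and 7.74.

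Of the repair enzymes, MSRA, which reduces oxidized methionine, had 9.09, 9.48 and 9.19 in RA late HF, against 9.47, 9.58 and 9.47 in RA controls. Late array 2 overlapped the controls (-0.25, SE 0.107, adjusted p = 0.375 in limma, and -0.22, adjusted p = 0.326, without RA late 3). MSRB2, its mitochondrial relative, ranged from 7.24 to 8.34. SESN1, a sestrin induced by p53, had 8.87, 8.85 and 8.77 in RV late HF, against 9.59, 9.04 and 9.11 in RV early HF and 8.98, 8.99 and 9.10 in RV controls. All late arrays lay below all others in that chamber, by -0.42 against early HF (SE 0.153, adjusted p = 0.810 in limma) and -0.19 against control (SE 0.153, adjusted p = 0.712). Other SESN1 probe sets above the signal filter gave -0.30 and -0.39 against early HF and only -0.06 and -0.10 against control.

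Late and early HF were also compared within each chamber, and the chambers' HF effects with each other. The members that passed numbered 0 of 36 in each of these 4 comparisons, and 0% of all genes passed in each. An unadjusted p under 0.05 was found for 3 members in RA and 5 in RV for late against early HF, where all genes had 7.74% and 5.21%. The 5 in RV were GLRX, GSR, SESN1, SOD2 and NOX4. For the difference between chambers it was 1 member early (CYBB, 5.15% of all genes) and 1 late (MAOB, 7.30% of all genes). Without RA late 3, 0 of the 36 members and 0 of the 10988 genes passed in each of the 4. Late against early HF then had 3 members in RA and 7 in RV with an unadjusted p under 0.05, against 8.53% and 6.83% of all genes.

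The chambers were then compared in control dogs, the comparison in which most genes passed. With all arrays 0 of 36 redox genes passed, against 2.69% of all genes, and 8 had an unadjusted p under 0.05, where 16.0% of all genes did. The 3 RA and 3 RV arrays did not overlap for 14 of the 36, 9 higher and 5 lower in RA, and for 27.3% of all genes. Without RA late 3, which enters here only through the shared spread, MAOB and CYBA passed as higher in RA, when 5.37% of all genes passed. With the arrays of the same replicate number treated as pairs, 1 of the 36, PRDX6, passed, as lower in RA, when 3.52% of all genes passed.

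MAOB had 7.43, 7.39 and 7.27 in RA controls, against 6.64, 6.38 and 6.64 in RV controls. The sets did not overlap, and the means were 7.36 ± 0.08 in RA and 6.55 ± 0.15 in RV (SD, n = 3 each). The difference was 0.81 (SE 0.239), or 1.75-fold, with an adjusted p of 0.0834 in limma, and 0.00469 without RA late 3. In early HF the chambers did not overlap either, at 7.40 to 7.66 in RA and 6.48 to 7.0 in RV. In late HF they overlapped, because RA late 3 had 6.42 and 2 RV arrays had 7.43 and 7.47.

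CYBA had 9.10, 9.28 and 9.09 in RA controls, against 8.70, 8.64 and 8.68 in RV controls. The difference of 0.48 (SE 0.145) had an adjusted p of 0.0877 in limma, and 0.0238 without RA late 3. A second CYBA probe set gave 0.57. In early HF the lowest RA array and the highest RV array both had 9.05. In late HF the library labelled RA late 3, at 8.98, lay among the RV arrays, at 8.80 to 9.02.

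PRDX6 had the opposite sign at every stage. In controls it had 10.75, 10.60 and 10.50 in RA, against 11.41, 11.14 and 10.83 in RV, a difference of -0.51 (SE 0.166, adjusted p = 0.116 in limma). In early HF it had 10.58 to 11.13 in RA and 11.25 to 11.78 in RV, and in late HF 10.79 to 11.08 in RA and 11.23 to 11.37 in RV. No RA array reached the RV arrays of its own stage, RA late 3 included. With same-numbered chambers as a block the adjusted p in controls was 0.0405, and 0.0449 where only controls and early HF were paired (2.07% of all genes passed there). Its other probe set gave -0.70.

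TXNRD1 and GPX1 also stood higher in RA controls without passing. TXNRD1 had 8.49, 8.71 and 8.41 in RA, against 8.20, 8.15 and 7.79 in RV (0.49, SE 0.148, adjusted p = 0.0909 in limma). Its other probe sets did not share this, with -0.11, 0.08 and -0.21 for the 3 above the signal filter, so the chamber difference of TXNRD1 depends on the probe set. GPX1 differed by 0.48 (SE 0.208, adjusted p = 0.261 in limma), and its other probe sets by 0.36 and 0.40. MSRA (0.26) and CAT (0.41) were the other positive members with an unadjusted p under 0.05, and PRDX3 (-0.27) the other negative one.

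Other cell types and the RNA measure of EF1A also differed between the control chambers. The fibroblast list averaged 8.51 to 8.65 in RA and 7.74 to 7.95 in RV, the adipocyte list 7.92 to 8.24 in RA and 7.01 to 7.42 in RV, and the mitochondrial list 11.5 to 11.6 in RA and 11.7 to 11.8 in RV. EF1A differed as given above, and GAPDH overlapped. Their part in the chamber differences of MAOB, CYBA and PRDX6 was not tested.

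**Figure D4:**
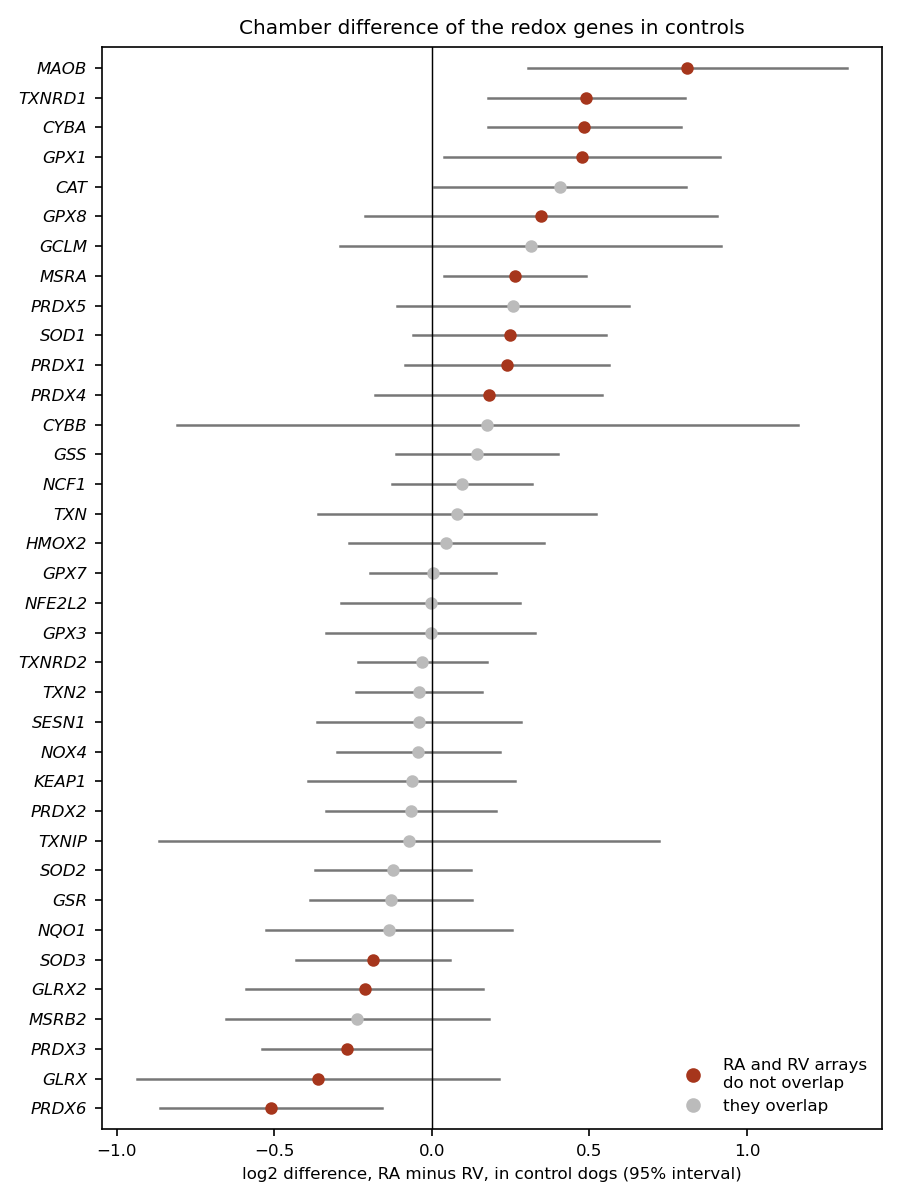
Log2 difference, RA minus RV, of the 36 tested redox genes in control dogs (3 arrays per chamber), with 95% intervals, ordered by size. Red points are the 14 genes whose RA and RV arrays do not overlap, and MAOB (0.81) and PRDX6 (-0.51) lie at the ends.

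Of the 8 members with an unadjusted p under 0.05 between the control chambers, RA late 3 lay nearer to the RV late mean than to the other RA late arrays for 4: GPX1, PRDX3, MAOB and CYBA. For the other 4, CAT, PRDX6, TXNRD1 and MSRA, it did not.

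Further redox genes outside the 42 were counted in 5 lists with 174 genes, 123 of them tested. With all arrays, 0 rose and 1 fell in RA early HF: COQ7, which acts in ubiquinone synthesis, at -0.50 (SE 0.112, adjusted p = 0.0463 in limma). Of all genes, 0.746% passed in RA early HF. None of the 123 passed in RA late HF, RV early HF or RV late HF. Without RA late 3, 4 rose in RA early HF (UGDH, MT2A, UCP2 and VNN1) and 2 fell (GSTK1 and COQ7), when 3% of all genes passed. In that fit 2 rose in RA late HF (TMX1 and UCP2), when 1.26% of all genes passed. UCP2, a mitochondrial carrier, was therefore the gene of these lists that passed at both stages in RA in that fit.

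Between control chambers the same lists held 4 genes that were higher in RA and 5 that were lower of the 123, with all arrays, when 2.69% of all genes passed. Leaving out RA late 3 gave 7 higher and 6 lower, when 5.37% of all genes passed. VNN1, which makes cysteamine from pantetheine, was higher by 1.83 (SE 0.389, adjusted p = 0.0166 in limma), GSTA4, a transferase that detoxifies lipid aldehydes, by 1.01 (adjusted p = 0.0291), the NADPH-forming malic enzyme ME1 by 0.97 (adjusted p = 0.0402) and TXNDC11 by 0.41 (adjusted p = 0.0340). UCP3, the muscle uncoupling protein, stood at -3.09 (SE 0.707, adjusted p = 0.0264 in limma), SQOR, which oxidizes sulfide, at -1.11 (adjusted p = 0.0108), and TIGAR, a bisphosphatase that favours NADPH production, at -1.02 (adjusted p = 0.0121). TXNL4A, a splicing factor with a thioredoxin fold, stood at -0.75 (adjusted p = 0.00931) and the mitochondrial transferase GSTK1 at -0.60 (adjusted p = 0.0337).

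By list, the control chambers gave 1 gene higher and 0 lower of 19 NRF2 partners and targets, and 1 and 1 of 19 genes of glutathione transfer and turnover. They gave 1 and 1 of 32 thioredoxin-fold and selenoprotein genes, 0 and 0 of 17 further oxidant sources, and 1 and 3 of 36 genes of other oxidant defence. The median differences, in that order, were 0.13, -0.05, 0.05, -0.08 and -0.05, and that of all genes was -0.02.

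Other marker lists were counted beside the redox genes. With all arrays, the mitochondrial list had 0 genes higher and 3 lower of 15 in RA early HF (NDUFS7, NDUFS8 and NDUFA13, all of complex I), the cardiomyocyte list 0 and 1 of 12 (TNNT2), the fibroblast list 1 and 0 of 11 (POSTN), and the smooth muscle and pericyte list 1 and 1 of 8. Leaving out RA late 3, 8 fibroblast and 2 endothelial markers were higher and 5 mitochondrial and 2 cardiomyocyte markers lower in RA early HF, and MYL2 and MYL3 of the ventricular list were higher. No gene of the endothelial list (11 tested), the adipocyte list (9) or the macrophage list passed in any HF comparison with all arrays. The neutrophil list averaged 5.24 to 5.73 and the red cell list 5.46 to 5.78 over all arrays, near the signal filter. The mitochondrial list averaged 11.29 to 11.41 in RA early HF, against 11.53 to 11.61 in RA controls. RA late 1, 2 and 3 had 11.38, 11.42 and 11.72. In RV it averaged 11.41 to 11.62 in early HF and 11.62 to 11.68 in late HF, below the controls at 11.72 to 11.81. The part of these lists in the redox results was not tested.

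The members varied more between arrays than genes at large, which were not matched to them for signal. Their median spread within groups was 0.192 (pooled SD on the log2 scale), against 0.150 for all genes tested, and their median range over the 18 arrays 0.905, against 0.62. The lowest spread was that of TXN2 and the highest that of CYBB (0.66).

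A single library held many of the highest values. RA late 1 had the highest signal of all 18 arrays for 14 of the 36 members, or 38.9%, against 16.1% of all genes tested. These were SOD1, SOD2, GPX1, GPX8, PRDX4, TXN, GLRX2, GSR, GCLM, NFE2L2, CYBB, CYBA, NOX4 and MSRB2. It had the lowest signal for 3 members, or 8.33%, against 17.7% of all genes. Of the other 17 arrays, RA early 1 had the highest signal of 4 members and none had more.

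**Figure D5:**
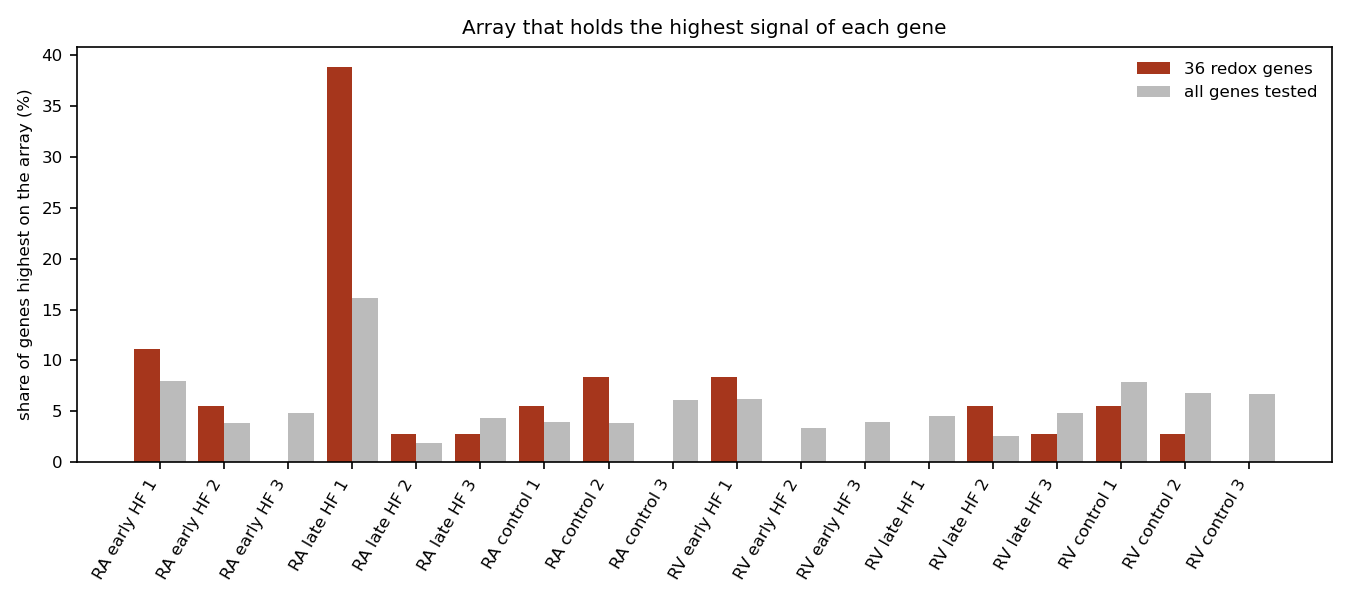
Share of genes whose highest signal over the 18 arrays falls on each array, for the 36 redox genes (red bars) and for all genes tested (grey bars), in percent. RA late HF 1 holds 38.9% of the redox genes and 16.1% of all genes, and RA early HF 1 comes next with 11.1% of the redox genes.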

How the data were processed

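The deposited table holds a log2 signal for each probe set and array. The submitters' processing notes name MAS5, with no version, and the log2 scale was read from the values. The normalization behind the deposited log2 values is not stated. Array medians lay between 5.65 and 5.75, and nothing further was normalized. Of 43035 probe sets, 111 controls and the 40% of lowest mean signal were left out, and 25752 were tested (10988 genes). Symbols came from the platform annotation, and 37 of the 39 members matched RefSeq by gene ID.

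A model with 1 mean per group was fitted over all 18 arrays with limma 3.58.1 in R 4.3.3 (12 residual degrees of freedom, trended variance prior). Tests were two-sided, Benjamini-Hochberg adjusted over all probe sets tested, with a threshold of 0.05, for 9 comparisons. The number of arrays limits the precision. Figures used Python 3.11.15 and matplotlib 3.10.9.

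The 42 members, the 5 lists of other redox genes and the 11 marker lists were chosen with earlier results of these data known. Array values are given for members past the threshold and for the 2 members of smallest p in each direction of each HF comparison. MAOB, CYBA, PRDX6, TXNRD1 and GPX1 between control chambers, and further members whose values are printed, were singled out after their values were seen.

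Replicate numbers were checked as pairs: same-numbered RA and RV arrays deviated together in controls (r = 0.36, 0.24 and 0.42) and early HF (0.17, 0.26 and 0.15) but not in late HF (0.05, -0.42 and 0.15). The pairing comes from these values, not from the labels. Alternatives covered the filter, variance prior, normalization, groups in the fit, probe set choice, the pairs and leaving out each array. The fit was tested on simulated data for RA early HF over 25752 probe sets, with independent noise and changes put on probe sets drawn at random. It found 53.7% of the probe sets changed 1.5-fold, 92.5% of those changed 2-fold and 97.0% of those changed 4-fold. These rates were not measured for the members, which varied more than genes at large. Of its 173 calls, 11 were false.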

Additional observations from a re-analysis of the deposited data

How the results depend on the processing

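With all arrays, 0 of the 36 members passed in each of the 9 comparisons. Leaving out 1 array at a time gave 0 to 1 members in RA early HF (CYBB, without RA late 1 and without RA late 3, adjusted p = 0.0174 and 0.0229 in limma), 0 to 1 in RA late HF (CYBB, without RA late 3) and 0 to 2 between control chambers. The last were CYBA and MAOB, without RA late 1 (adjusted p = 0.0407 and 0.0473) and without RA late 3. Fitting only the groups compared gave 1 in RA early HF (CYBB, adjusted p = 0.0252, range 0.0174 to 0.323 over all alternatives) and 3 between control chambers: CYBA, GPX1 and MAOB (adjusted p = 0.0144, 0.0169 and 0.00149). With quantile normalization 1, PRDX6 (-0.61, adjusted p = 0.0357), passed there. The replicate block also gave 1, PRDX6, paired over all stages (adjusted p = 0.0405) or, in an alternative chosen after seeing the data, in controls and early HF only (0.0449). The block changed no other member's call. Members called in the other 6 comparisons numbered 0 under each alternative run. The one sign change among named members was GPX3 in RA late HF, 0.015 without RA late 1 (-0.365 to 0.015 leaving out 1 array at a time).

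The count over all genes moved more. In RA early HF it was 82, against 161 with quantile normalization and 279 with only the groups compared, and between control chambers 296, against 878 with only the groups compared. In RV late HF it was 0, against 115 with only the groups compared, in RA late HF 4, against 7, 0 and 7 with quantile normalization, only the groups compared and the mean of all probe sets. In RV early HF it was 11, against 19 with a constant variance prior, 26 with quantile normalization, 28 with the replicate block and 5 without cross-hybridising probe sets, and for the early difference between chambers 0, against 5 with only the groups compared. Leaving out 1 array gave 6 to 336 genes in RA early HF, 0 to 138 in RA late HF, 0 to 117 in RV early HF, 0 to 17 in RV late HF and 96 to 590 between control chambers. The causes were not tested. With 3 arrays per group, changes under 1.5-fold were often not detectable. Larger ones could also fail to pass, such as the 3.04-fold difference of CYBB in RA early HF with all arrays. GSR, NCF1, GCLC, HMOX1 and MAOA lay near background, where a probe set's change is compressed.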
